A study of Mus musculus with 8 samples.

Results

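The xenobiotic cytochrome P450 genes of families 1 to 3 were examined in livers of 1-year-old mice, leaving out the Cyp2c genes. Members were taken by symbol, as every gene of the deposited table whose name begins with Cyp1, Cyp2 or Cyp3 and a lower-case letter, and this gave 38 of 16640 genes in 15 subfamilies. The compared groups were 4 livers with a liver-specific Huwe1 knockout (Huwe1_LKO) and 4 WT livers, all from mice fed a chow diet at will. Huwe1 encodes a ubiquitin ligase, and the labels name neither the Cre driver nor the sex of the mice. The deposited table gives a single value per gene and group, in reads normalized for depth, so the spread among livers enters only through the authors' p-values. Each SE below is the standard error implied by the deposited log2 fold change and its p-value, and a gene was called at a deposited adjusted p under 0.05.

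P450 enzymes are heme proteins of the endoplasmic reticulum that insert an oxygen atom into drugs, pollutants, steroids and fatty acids, with electrons passed on by the reductase POR and by cytochrome b5. In liver, families 1, 2 and 3 carry most of the oxidation of foreign compounds, and the receptors AhR, CAR (Nr1i3) and PXR (Nr1i2) switch on subsets of them when such compounds arrive. Many mouse members are also set by sex through the pattern of growth hormone release, and many lie in tandem arrays of near-identical copies. Several are zoned along the liver lobule, with Cyp2e1 and Cyp1a2 around the central vein and Cyp2f2 around the portal vein.

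The label of the knockout was borne out by its target, since Huwe1 (chrX:151800785-151935417 on GRCm38) fell to 1784 in Huwe1_LKO, against 2666 in WT, by the authors' deposited test (log2 fold change -0.58, SE 0.13, adjusted p = 0.000425). All deposited values summed to 17533080 normalized reads in Huwe1_LKO and 17347886 in WT. Of 10 hepatocyte markers listed, 9 were analysed, and of these 2 were called higher and 0 lower in the deposited table. The levels of the 9 ran from 18547 to 1629594 in Huwe1_LKO and from 25942 to 1192099 in WT. Their summed deposited level was 2370190 in Huwe1_LKO and 1784303 in WT (median log2 fold change 0.26). None of the 10 Kupffer cell, 10 stellate cell or 10 lymphocyte markers was called or had an unadjusted p under 0.05 in the deposited DESeq2 result, against 1 higher of 10 endothelial markers (Fcgr2b) and 3 higher of 10 neutrophil markers (S100a9, Lcn2 and Retnlg, the call of Retnlg being lost with the trend in length and level subtracted, at an adjusted p of 0.0945). Summed deposited levels in Huwe1_LKO and WT were 4281 and 3655 for Kupffer cell markers, 8356 and 7775 for stellate cell markers, 3213 and 2959 for endothelial markers, 1676 and 941 for the 9 cholangiocyte markers reported, 358 and 288 for lymphocyte markers, and 4047 and 1393 for neutrophil markers. A single gene carried most of the neutrophil sum, with a highest value of 3743 in Huwe1_LKO and 1236 in WT. The cholangiocyte sum was likewise carried by its highest value, 1410 in Huwe1_LKO and 722 in WT. Neither sum therefore describes its markers as a set. No defining marker on these lists was listed at 0. Over all 16640 genes, 4.41% were called higher and 5.56% lower. The part of these shifts in the P450 values was not tested, and in whole tissue fewer cells of a type and less RNA per cell cannot be told apart.

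Of the 38 drug-metabolizing P450 genes 6 passed the test, and 11 had group values within 1.1-fold of each other. Cyp2a5, Cyp2f2, Cyp2g1, Cyp3a13 and Cyp3a44 rose in Huwe1_LKO and Cyp2r1 fell, by the authors' deposited table. These are 13.2% of the members higher and 2.63% lower, beside 4.41% of all 16640 genes higher, 5.56% lower and 9.97% either way. At an unadjusted p under 0.05 there were 14 members, 9 above 0 and 5 below. No share of all genes was taken at that unadjusted limit. Counts at an unadjusted p are therefore descriptions only and cannot be set against the shares above. The median log2 fold change was -0.03 over all 38 members and 0.02 over the 30 members with a mean value of 10 or more, beside 0.02 and 0.01 over all genes of the deposited table at the same limits. Fold changes above and below 0 were equally frequent, with 19 members each way. In size, the median log2 fold change of the 30 more abundant members was 0.37, and that of all genes at that level was 0.21. The median SE was also larger, at 0.203 for these 30 members and 0.175 for all genes at that level. The part of this lower precision in the larger size was not tested. All 6 called members were among these 30, a level at which 5.69% of all genes were called higher, 7.4% lower and 13.1% either way, and the other 8 (Cyp2ab1, Cyp2b13, Cyp2d11, Cyp2j8, Cyp2j11, Cyp2j13, Cyp2s1 and Cyp2t4) lay below a mean value of 10.

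**Figure D1:**
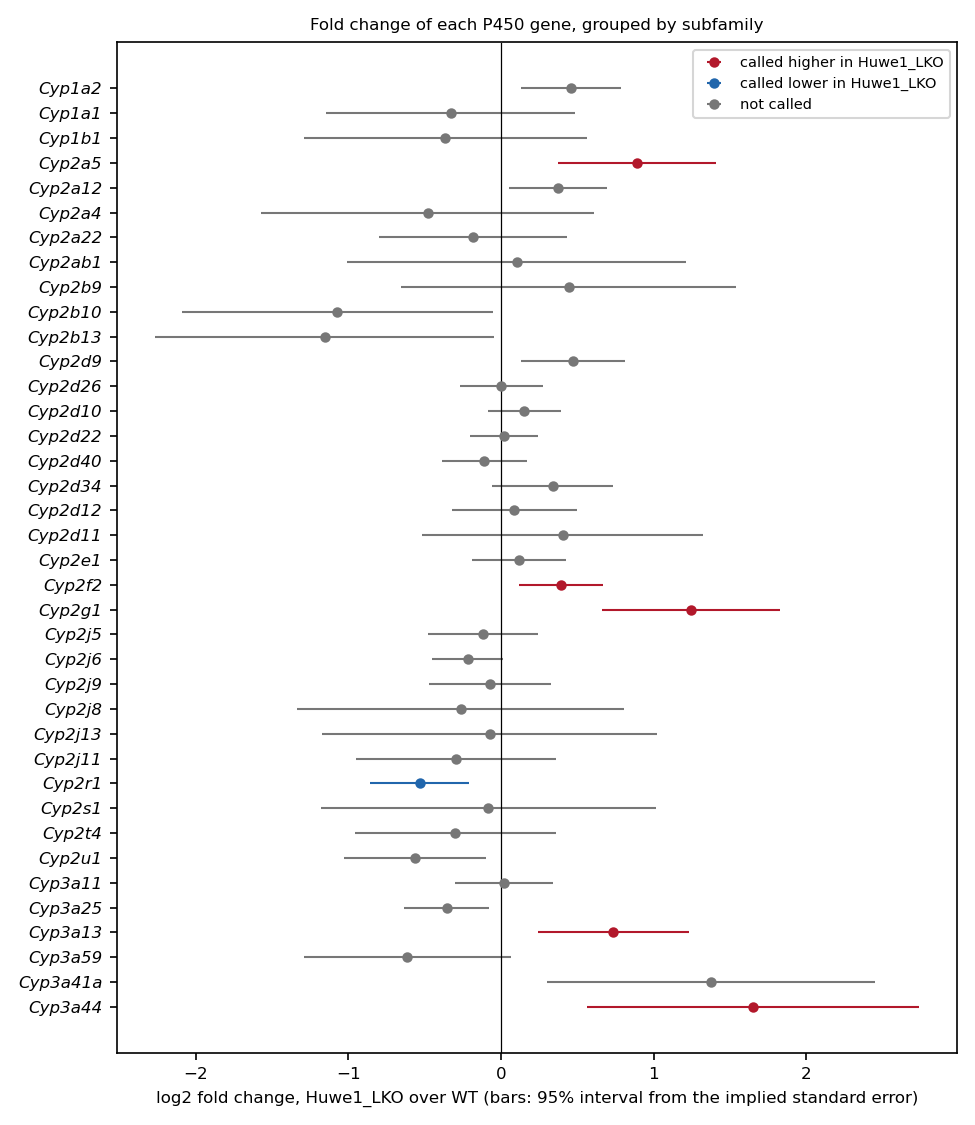
The log2 fold change of Huwe1_LKO over WT is plotted for the 38 P450 genes, ordered by subfamily. Points are the deposited values and bars the 95% intervals from the implied SEs, in red for 5 genes called higher, blue for 1 called lower and grey for the rest, and most intervals span 0.

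Summed over the 38 members, the deposited level was 403919 normalized reads in Huwe1_LKO and 353752 in WT, or 2.30% of the table's total in Huwe1_LKO and 2.04% in WT. Per 1000 bases of transcript, Cyp2e1, which oxidizes ethanol and acetone, was the most abundant member in both groups, with 83151 in Huwe1_LKO and 76695 in WT. It was followed in Huwe1_LKO by Cyp3a11 at 31287, Cyp2a5 at 20294 and Cyp2d9 at 17854 on the same scale, while in WT the same genes stood at 30865, 10941 and 12873. Cyp2a5 thus ranked above Cyp2d26, Cyp2d9 and Cyp2f2 in Huwe1_LKO, where their deposited levels per 1000 bases were 12843, 17854 and 15744, and below them in WT, where these were 12814, 12873 and 11988. The Cyp2a genes made up 13.97% of the members' length-scaled level in Huwe1_LKO and 10.2% in WT, and the Cyp3a genes 16.6% in Huwe1_LKO and 19.3% in WT. Cyp2e1 made up 37.6% in Huwe1_LKO and 39.9% in WT, and the Cyp2d genes 20.0% in Huwe1_LKO and 19.9% in WT. Of the 16 members with a mean value of 1000 or more, 11 had a fold change above 0 and 5 below, and the 3 that were called (Cyp2a5, Cyp2f2 and Cyp3a13) were all higher in Huwe1_LKO. Shares of all genes were not taken at this level, so these counts are a description with no background beside them.

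**Figure D2:**
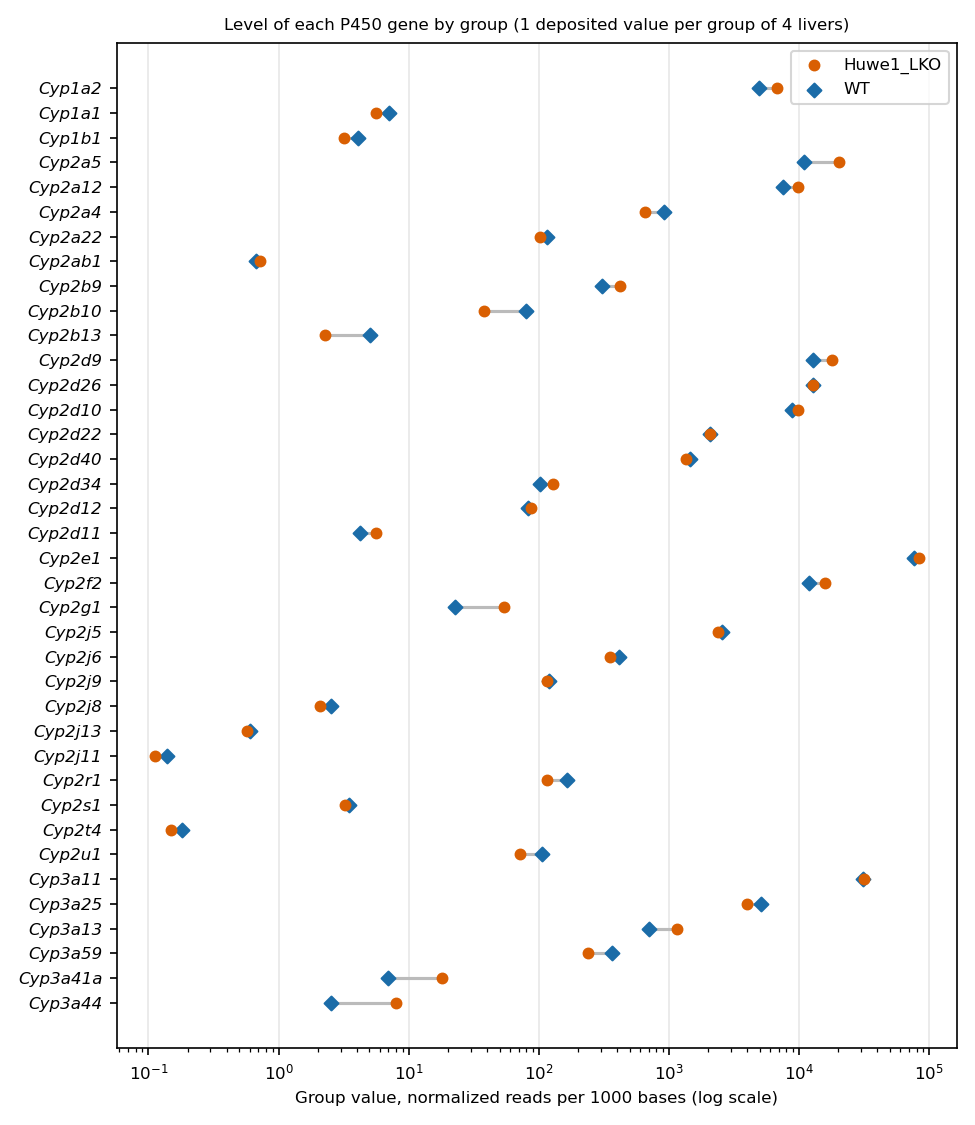
Deposited group values per 1000 bases of transcript are shown on a log scale for each of the 38 P450 genes, with Huwe1_LKO as circles and WT as diamonds. Levels run from 0.113 for Cyp2j11 to 83151 for Cyp2e1 in Huwe1_LKO, and the gap between the groups is small beside this range for most genes.

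Family 1 holds the enzymes induced through AhR, which activate polycyclic aromatic hydrocarbons and aromatic amines. Cyp1a2, the constitutive liver member that demethylates caffeine, had 12798 in Huwe1_LKO and 9312 in WT in the authors' deposited table. Its log2 fold change of 0.46 (SE 0.17) missed the threshold at an adjusted p of 0.0591. The inducible Cyp1a1 was low in both groups of the deposited table, at 14.9 in Huwe1_LKO and 18.7 in WT, and Cyp1b1, an enzyme found mainly outside hepatocytes, stood at 16.3 in Huwe1_LKO and 21.0 in WT. Neither was called, with log2 fold changes of -0.33 and -0.36 and deposited adjusted p of 0.788 and 0.795. Ahr itself stood at 666 in Huwe1_LKO and 512 in WT and was not called in the deposited table (adjusted p = 0.206). Of 9 AhR targets outside the P450 genes, 0 were called in the deposited DESeq2 result and 2 had an unadjusted p under 0.05, both below 0 (Gsta1 and Ugt1a6a, named after their values were seen). The median log2 fold change of the 9 was 0.03, and 9.97% of all genes were called.

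The Cyp2a subfamily had the largest log2 ratio of summed levels among the 6 subfamilies with 2 or more members. Its 4 genes summed to 53246 in Huwe1_LKO and 33626 in WT in the authors' deposited table, a log2 ratio of 0.66 with a propagated standard error of 0.18. Cyp2a5, the coumarin 7-hydroxylase that also oxidizes nicotine, stood at 35434 in Huwe1_LKO and 19103 in WT. It rose 1.85-fold in the deposited table (log2 fold change 0.89, SE 0.26, adjusted p = 0.0117). Cyp2a12, which hydroxylates testosterone and secondary bile acids, had 16467 in Huwe1_LKO and 12706 in WT, with a deposited log2 fold change of 0.37 that did not pass (adjusted p = 0.147). Cyp2a4, a testosterone 15-alpha-hydroxylase that is higher in female mice, had 1119 in Huwe1_LKO and 1560 in WT, with a log2 fold change of -0.48 and a deposited adjusted p of 0.750. Cyp2a22 was not called, at 226 in Huwe1_LKO and 257 in WT in the deposited table (adjusted p = 0.847). Cyp2a5 made up 66.5% of the summed level of the subfamily in Huwe1_LKO and 56.8% in WT, and without it the log2 ratio of the sums was 0.29.

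Cyp2a5 and Cyp2a4 are shown side by side because their deposited fold changes had opposite signs while their sequences nearly match. Their GENCODE transcripts were 98.3% identical over 1738 aligned bases, and 14.4% of the 100-base stretches of Cyp2a5 and 11.2% of those of Cyp2a4 also occurred in another gene. With each other alone, the shares were 9.56% of the stretches of Cyp2a5 and 11.2% of those of Cyp2a4. The 150 bases before each RefSeq start on GRCm38.p6 are printed 5′ to 3′, with the bases that differ between the aligned genes in capitals.
Cyp2a5, chr7:26835189-26835338, plus strand: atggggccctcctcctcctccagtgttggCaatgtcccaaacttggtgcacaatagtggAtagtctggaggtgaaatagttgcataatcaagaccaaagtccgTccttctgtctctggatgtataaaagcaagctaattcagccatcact
Cyp2a4, chr7:26307042-26307191, plus strand: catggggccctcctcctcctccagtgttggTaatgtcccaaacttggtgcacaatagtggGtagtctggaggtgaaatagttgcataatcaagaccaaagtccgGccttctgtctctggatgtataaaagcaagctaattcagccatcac

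The pair differed at 3 of 149 aligned bases in this stretch and at 5 of 299 over the whole RefSeq promoter window of 300 bases. Added together, Cyp2a5 and Cyp2a4 had 36553 in Huwe1_LKO and 20663 in WT in the authors' deposited table. The log2 ratio of these sums was 0.82 (propagated standard error 0.25). The sum does not settle an exchange of reads between them, because each group value follows that gene's own deposited fold change. The difference between their fold changes was not tested, for want of values per liver.

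The Cyp2b subfamily holds Cyp2b10, the classical target of CAR and phenobarbital, and Cyp2b9 and Cyp2b13, which are higher in female mice. None of the 3 was called in the deposited DESeq2 result, although Cyp2b10 and Cyp2b13 each had an unadjusted p under 0.05. Cyp2b9 made up 91.2% of the summed level in Huwe1_LKO and 78.3% in WT, and stood at 786 in Huwe1_LKO and 578 in WT in the authors' deposited table. Its log2 fold change of 0.44 had an SE of 0.56 and an adjusted p of 0.787. Cyp2b10 stood at 71.6 in Huwe1_LKO and 150.4 in WT, with a deposited log2 fold change of -1.07 (95% interval from -2.09 to -0.05, adjusted p = 0.210). Cyp2b13 stood at 4.27 in Huwe1_LKO and 9.51 in WT, with a deposited log2 fold change of -1.15 (95% interval from -2.26 to -0.04, adjusted p = 0.218).

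Cyp2b9 and Cyp2b13 are printed because their promoter windows were nearly identical, while their deposited levels lay far apart. They were closer than those of the other printed pairs, Cyp2a5 with Cyp2a4 and Cyp3a44 with Cyp3a41a, and no further pair was aligned. The printed stretches of Cyp2b9 and Cyp2b13 run from 250 to 109 bases before the start used by the RefSeq promoter table on GRCm38.p6, with differing bases in capitals. That start lies 59 bases inside the gene's span for Cyp2b9 and 107 bases inside it for Cyp2b13, so the printed bases lie wholly outside both genes while the full windows hold gene sequence.
Cyp2b9, chr7:26173159-26173300, plus strand: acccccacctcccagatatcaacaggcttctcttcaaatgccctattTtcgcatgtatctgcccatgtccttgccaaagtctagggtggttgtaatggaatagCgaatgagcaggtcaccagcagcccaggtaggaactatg
Cyp2b13, chr7:26061245-26061386, plus strand: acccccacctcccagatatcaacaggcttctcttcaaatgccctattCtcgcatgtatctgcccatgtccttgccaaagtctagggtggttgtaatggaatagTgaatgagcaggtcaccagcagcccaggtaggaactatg

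Only these 2 bases differed over the whole window of 300 bases, both windows hold the nuclear receptor motif AGGTCA at position -138 from the start used, and their GENCODE transcripts were 91.9% identical over 1848 bases. A shared 100-base stretch was rare between them, at 1.18% of Cyp2b9, and 9.29% of the stretches of Cyp2b13 recurred elsewhere, mostly in Gm45225. Stretches of 50 bases recurred in another gene more often, at 11.2% for Cyp2b9 and 27.3% for Cyp2b13.

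Cyp2d genes, relatives of the human debrisoquine and codeine enzyme, leaned upward without passing the test. Of 8 members 7 had a fold change above 0 and 0 passed in the deposited DESeq2 result, 1 of them (Cyp2d9) at an unadjusted p under 0.05. Their sum was 74898 in Huwe1_LKO and 64936 in WT, a log2 ratio of 0.21 (propagated standard error 0.08), and without Cyp2d9 it was 0.06. Cyp2d9, the testosterone 16-alpha-hydroxylase that is higher in male mice, had 29477 in Huwe1_LKO and 21253 in WT in the authors' deposited table. It was the uncalled member closest to the threshold, with a log2 fold change of 0.47 (SE 0.17, adjusted p = 0.0590). Cyp2d26 was at 21127 in Huwe1_LKO and 21078 in WT, and the 95% interval of its deposited log2 fold change ran from -0.27 to 0.27. Cyp2d22, often taken as the closest mouse counterpart of CYP2D6, was at 5790 in Huwe1_LKO and 5711 in WT, with a deposited interval from -0.20 to 0.24. Cyp2d10 (16631 in Huwe1_LKO, 14955 in WT) and Cyp2d40 (1524 in Huwe1_LKO, 1644 in WT) likewise did not pass in the deposited table, with adjusted p of 0.569 and 0.793. Cyp2d34, Cyp2d12 and Cyp2d11 ranged from 8.93 to 209 in Huwe1_LKO and from 6.74 to 165 in WT. Of the 100-base stretches of Cyp2d9, Cyp2d10 and Cyp2d11, 9.86%, 14.8% and 12.2% occurred in any other gene. Cyp2d10 held 4.03% of those of Cyp2d9 and 11.1% of those of Cyp2d11, and Cyp2d11 held 10.7% of those of Cyp2d10. Reads of the 3 may thus have been divided between them. Their deposited values together summed to 46117 in Huwe1_LKO and 36215 in WT.

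Cyp2e1, Cyp2f2 and Cyp2g1 are single genes of their subfamilies. Cyp2e1 stood at 146262 in Huwe1_LKO and 134907 in WT and was not called in the deposited table (log2 fold change 0.12, 95% interval from -0.19 to 0.42, adjusted p = 0.808). Cyp2f2, the periportal enzyme known for activating naphthalene in the mouse lung, had 29000 in Huwe1_LKO and 22083 in WT and rose 1.31-fold by the authors' deposited test (log2 fold change 0.39, SE 0.14, adjusted p = 0.0473). Cyp2g1, known from the olfactory mucosa of rodents, had 99.6 in Huwe1_LKO and 42.0 in WT. It rose 2.37-fold in the deposited table (log2 fold change 1.24, SE 0.30, adjusted p = 0.000897), which was the smallest adjusted p of the 38 members. Cyp2g1 was the only member that still passed at an adjusted p under 0.01.

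Along chromosome 7, 11 of these genes lie in a single array on GRCm38, from Cyp2s1 at chr7:25802469-25816525 to Cyp2t4 at chr7:27153714-27158564. Of the 3 genes that rose there, Cyp2g1 comes first, 1006 kb from the first base of Cyp2s1. The 5 genes before it, by this choice uncalled, had SEs from 0.52 to 0.57, against 0.14 to 0.34 from Cyp2g1 on. A change of a given size was thus harder to call before Cyp2g1. Cyp2g1 (chr7:26808927-26821197) and Cyp2a5 (chr7:26835339-26843264) are direct neighbours with 0 RefSeq protein-coding genes and 14.1 kb between them, and both rose. Their neighbours further on were Cyp2a22 with a deposited log2 fold change of -0.18, Cyp2a12 with 0.37, Cyp2f2 with 0.39 and Cyp2t4 with -0.30. Before Cyp2g1, the deposited log2 fold changes were -0.08 for Cyp2s1, -1.07 for Cyp2b10, -1.15 for Cyp2b13, 0.44 for Cyp2b9 and -0.48 for Cyp2a4. The position of the calls along the array is a description and was not tested. Cyp2g1 shared 1.34% and Cyp2f2 4.64% of their 100-base stretches with other transcripts on either strand, Gm44964 and Gm15883, and the sources used here do not say whether counting used strand.

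**Figure D3:**
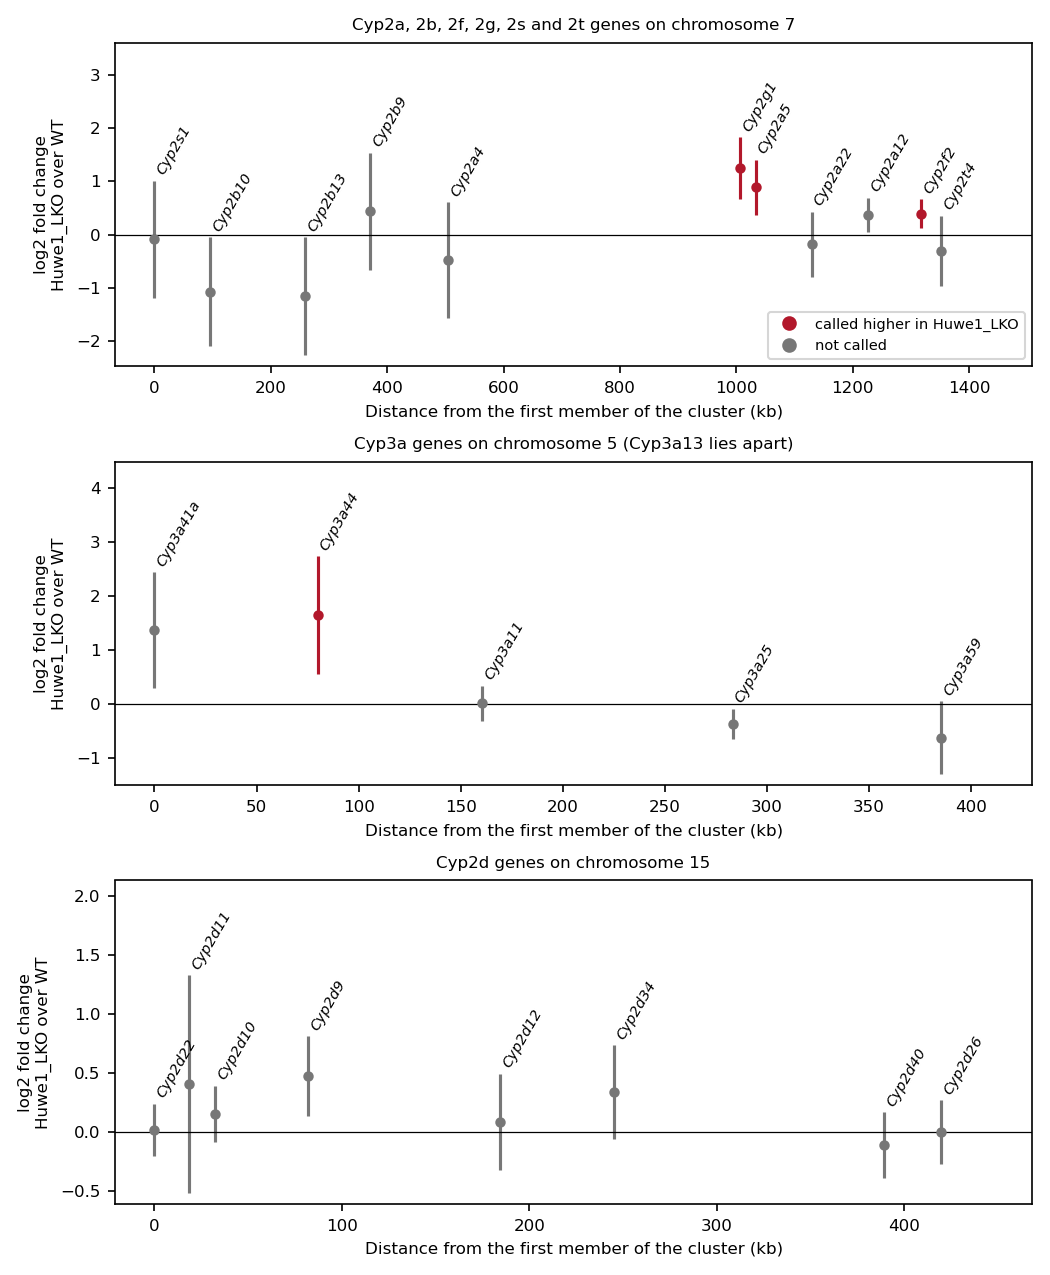
Deposited log2 fold changes of Huwe1_LKO over WT are drawn against distance in kb from the first member for the arrays on chromosomes 7, 5 and 15, with bars for 95% intervals from the SEs. Red points are genes called higher, which on chromosome 7 are Cyp2g1, Cyp2a5 and Cyp2f2 and on chromosome 5 Cyp3a44, and no Cyp2d gene on chromosome 15 was called.

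The Cyp2j genes encode epoxygenases of arachidonic acid, and none passed the test. All 6 members had a fold change below 0 in the deposited table, from -0.30 to -0.07 on the log2 scale, and 0 had even an unadjusted p under 0.05 in the DESeq2 result. Their sum was 10147 in Huwe1_LKO and 11106 in WT, a log2 ratio of -0.13 with a propagated standard error of 0.16. Cyp2j5, which makes up 85.2% of the sum in Huwe1_LKO and 84.5% in WT, was at 8649 in Huwe1_LKO and 9387 in WT in the authors' deposited table (adjusted p = 0.847). Cyp2j6 had 1270.0 in Huwe1_LKO and 1478 in WT (deposited log2 value -0.22, adjusted p = 0.286). Cyp2j9 had 223 in Huwe1_LKO and 234 in WT, and Cyp2j8, Cyp2j13 and Cyp2j11 were all below 4 in the deposited table.

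Cyp2r1 and Cyp2u1 act mainly on compounds made in the body. Cyp2r1, the main vitamin D 25-hydroxylase of liver, had 187 in Huwe1_LKO and 271 in WT in the authors' deposited table. It fell 1.45-fold (log2 fold change -0.53, SE 0.16, adjusted p = 0.0173) and was the only member called lower, and none of its 100-base stretches occurred in another gene. That call was lost when the fold changes were centred on the most abundant eighth of genes (adjusted p = 0.0549) or freed of their trend with gene length and level (adjusted p = 0.0569). Cyp2u1, a fatty acid hydroxylase, had 167 in Huwe1_LKO and 247 in WT, with a deposited log2 fold change of -0.56 that did not pass (adjusted p = 0.120). The remaining single genes of their subfamilies were barely detected, with deposited values of 8.55 in Huwe1_LKO and 9.06 in WT for Cyp2s1, 1.96 in Huwe1_LKO and 1.83 in WT for Cyp2ab1, and 0.225 in Huwe1_LKO and 0.276 in WT for Cyp2t4. The values of Cyp2t4 and Cyp2j11 amount to 2.004 and 1.97 normalized reads over all 8 livers, so a difference in them was not detectable at this depth.

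Cyp3a genes, the mouse counterparts of the broadest human drug-oxidizing enzyme, had 2 members that rose, while the summed level was close to equal in the groups. The 6 members summed to 76210 in Huwe1_LKO and 76434 in WT by the authors' deposited values (log2 ratio 0.00, propagated standard error 0.14). Cyp3a11, the main PXR-responsive member, made up 84.3% of that sum in Huwe1_LKO and 82.9% in WT. It stood at 64232 in Huwe1_LKO and 63365 in WT in the deposited table (log2 fold change 0.02, 95% interval from -0.30 to 0.34, adjusted p = 0.975). Cyp3a13, which lies apart from the array at chr5:137892933-137925610 and is also expressed in intestine, had 3436 in Huwe1_LKO and 2063 in WT. It rose 1.67-fold in the deposited table (log2 fold change 0.74, SE 0.25, adjusted p = 0.0380), with no 100-base stretch found in another gene. Cyp3a25 leaned the other way, with 8010 in Huwe1_LKO and 10251 in WT, and did not pass (log2 fold change -0.36, deposited adjusted p = 0.0917). Its close copy Cyp3a59 had 481 in Huwe1_LKO and 736 in WT (log2 fold change -0.61, deposited adjusted p = 0.315). The transcripts of this pair were 97.0% identical, and their deposited values together were 8490 in Huwe1_LKO and 10987 in WT.

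Cyp3a44 and Cyp3a41a are higher in female mice and were low in both groups. Cyp3a44 had 15.6 in Huwe1_LKO and 4.96 in WT and rose by the authors' deposited test (log2 fold change 1.65, SE 0.55, adjusted p = 0.0340), a call lost when the trend with gene length and level was subtracted (adjusted p = 0.0645). Cyp3a41a had 37.3 in Huwe1_LKO and 14.4 in WT, with a deposited log2 fold change of 1.37 that did not pass (adjusted p = 0.0927). Its value cannot be assigned to that gene alone, because 88.4% of its 100-base stretches also occur in Cyp3a41b, which was not analysed here. Added together, the deposited values of Cyp3a44 and Cyp3a41a were 52.9 in Huwe1_LKO and 19.4 in WT (log2 ratio 1.45, propagated standard error 0.42). The pair is printed because both had large positive deposited fold changes and stand next to each other in the array, at chr5:145694049-145720136 for Cyp3a41a and chr5:145773983-145805891 for Cyp3a44. The 150 bases before the start that the RefSeq promoter table uses on GRCm38.p6 are given 5′ to 3′, with differing bases in capitals. For Cyp3a44 that start lies inside the gene's span, so the last 17 printed bases fall within it, and for Cyp3a41a none do.
Cyp3a44, chr5:145805875-145806024, minus strand: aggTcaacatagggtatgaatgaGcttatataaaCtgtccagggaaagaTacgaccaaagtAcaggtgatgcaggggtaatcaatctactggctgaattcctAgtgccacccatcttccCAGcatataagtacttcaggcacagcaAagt
Cyp3a41a, chr5:145720137-145720286, minus strand: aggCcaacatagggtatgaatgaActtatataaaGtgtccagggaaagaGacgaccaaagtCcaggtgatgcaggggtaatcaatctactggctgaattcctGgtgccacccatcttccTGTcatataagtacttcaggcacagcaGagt

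Of these 150 bases, 10 differed. The AGGTCA motif that opens the Cyp3a44 stretch covers one of the differing bases, and no AGGTCA was found in the 300-base window of Cyp3a41a. Among the 33 members with a RefSeq promoter window, 16 had the start used inside the gene's span. Of the 33, 12 held AGGTCA on either strand, beside 16.0% of 27025 windows of all genes. The TATA motif TATAAA was found in 16 of the 33, beside 14.2% of all windows, the forkhead motif TGTTTAC in 5, beside 3.55%, the AhR core GCGTG in 7, beside 32.5%, and the STAT motif TTCNNNGAA in 1, beside 8.47%. The palindrome TTGCNNCAA, a C/EBP motif, was in 0 of the 33 and in 2.12% of all windows. These are matches of letters in a short window, and tandem copies are not independent promoters.

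The 6 members known to be higher in female mice (Cyp2a4, Cyp2b9, Cyp2b10, Cyp2b13, Cyp3a41a and Cyp3a44) had fold changes of low precision for their level. Their SEs lay between 0.52 and 0.57, close to the largest of any gene in the table at 0.57. For Cyp2a4, with a mean value of 1339, the SE was 0.56, while 2278 genes within a factor of 2 of its level had a median of 0.13 and 99.9% of them lay below it. For Cyp2b9 the SE was 0.56 against a median of 0.13 at its level, and for Cyp2b10 it was 0.52 against 0.20. At lower levels the gap was narrower, with 0.55 against 0.35 for Cyp3a41a, 0.55 against 0.46 for Cyp3a44 and 0.57 against 0.50 for Cyp2b13. No SE in the deposited table exceeded 0.57, so the gap had less room where the median was high. Across the 6, between 96.3% and 99.9% of genes of like level had a smaller SE, and among the other members Cyp3a59 reached 98.2%. The 25 other members with a mean value of 10 or more had SEs from 0.11 to 0.47 with a median of 0.17, and all 32 other members, the low ones included, reached 0.57 with a median of 0.21. Large SEs were not confined to genes higher in female mice. Among genes listed as higher in male liver, Hsd3b5 (2576 in Huwe1_LKO, 1773 in WT) had an SE of 0.56 and Selenbp2 (3584 in Huwe1_LKO, 2498 in WT) 0.53. Others of that list had small ones, such as Mup3 at 0.19 and Nudt7 at 0.15. Which livers carried the spread cannot be told from group values.

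**Figure D4:**
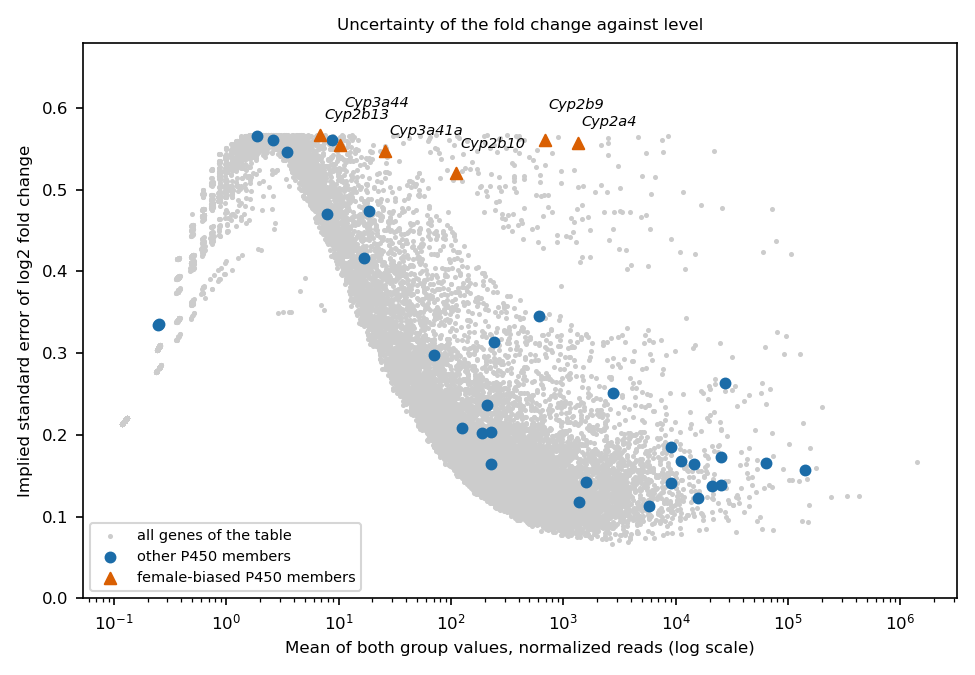
The implied SE of the log2 fold change is plotted against the mean of both group values, on a log scale, for all 16640 genes (grey), the 32 other P450 genes (blue circles) and the 6 that are higher in female mice (orange triangles). The 6 lie between 0.52 and 0.57 at every level, from Cyp2b13 at 6.89 to Cyp2a4 at 1339.

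Transcripts of the Y chromosome were present in both groups of the deposited table. Uty was at 192 in Huwe1_LKO and 177 in WT, Kdm5d at 244 in Huwe1_LKO and 229 in WT, and Eif2s3y at 686 in Huwe1_LKO and 731 in WT, none of them called, while Ddx3y rose to 939 in Huwe1_LKO, against 681 in WT (adjusted p = 0.0466, or 0.102 with the trend subtracted). Xist was not analysed here. Of 23 genes listed as higher in female liver, 20 were analysed, 6 of them members. Among these 20, 2 were called higher and 3 lower by the deposited test (median log2 value 0.00). Among those outside the family, Cux2 rose (1.80) and Hao2 (-2.07), Cyp4a14 (-1.44) and Atp6v0d2 (-1.14) fell, on the log2 scale of the authors' deposited table, the call of Atp6v0d2 being lost after centring on abundant genes (adjusted p = 0.0525). Of 20 genes listed as higher in male liver, 4 were called higher and 3 lower, with a median of 0.43. Gstp2 (4.03), Gstp1 (1.41) and C6 (0.90) rose and Elovl3 (-1.72), Ces2e (-0.92) and Mup7 (-1.17) fell, the 6 with the smallest deposited adjusted p. Beside both lists, 4.41% of all genes were called higher and 5.56% lower. The part of sex or of growth hormone in the P450 values was not tested.

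Of 20 receptors and partners that act on these genes, 1 was called higher and 1 lower by the deposited test (median log2 value 0.06), a share close to the 9.97% of all genes. Hnf4a, the nuclear receptor that maintains many liver P450 genes, rose to 11654 in Huwe1_LKO, against 8990 in WT (adjusted p = 0.0318). Nr1h3, the oxysterol receptor LXR-alpha, fell to 1314 in Huwe1_LKO, against 1657 in WT in the deposited table (adjusted p = 0.00863), a call lost after centring on abundant genes (adjusted p = 0.0683) or with the trend subtracted (0.177). Nr1i3, which encodes CAR, had 1225 in Huwe1_LKO and 2061 in WT and did not pass (log2 fold change -0.75, SE 0.32, deposited adjusted p = 0.127). Nr1i2, which encodes PXR, had 1053 in Huwe1_LKO and 1228 in WT (deposited adjusted p = 0.561). Among 21 CAR and PXR targets outside the P450 genes, 1 rose and 3 fell by the authors' deposited test (median log2 value -0.12). Over all genes 4.41% rose and 5.56% fell by that test. The aldehyde dehydrogenases Aldh1a1 (-0.85) and Aldh1a7 (-0.89) and the carboxylesterase Ces2a (-0.73) fell and the tubulin Tuba8 (1.52) rose, as deposited log2 fold changes.

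The genes of electron donors and membrane partners of P450 enzymes did not move together. Of 10 electron donors and membrane partners, 1 rose and 4 fell by the authors' deposited test (median log2 value -0.26). Over all genes 4.41% were called higher and 5.56% lower, and the shares were not tested against each other. Por, the reductase on which all microsomal P450 enzymes depend, rose to 10120 in Huwe1_LKO, against 7037 in WT (log2 fold change 0.52, SE 0.17, deposited adjusted p = 0.0210). Cyb5r3, which reduces cytochrome b5, fell to 7507 in Huwe1_LKO, against 13820 in WT (log2 fold change -0.88, SE 0.12, deposited adjusted p = 5.58e-12). Cyb5b, the cytochrome b5 of the outer mitochondrial membrane, fell to 5470 in Huwe1_LKO, against 9064 in WT (deposited adjusted p = 0.000485). The microsomal Cyb5a was at 22079 in Huwe1_LKO and 21002 in WT and was not called in the deposited table. The heme-binding membrane proteins Pgrmc2 (936 in Huwe1_LKO, 1800 in WT, adjusted p = 3.58e-09) and Pgrmc1 (16315 in Huwe1_LKO, 21666 in WT, adjusted p = 0.0146) fell in the deposited table, but Pgrmc1 not after centring on abundant genes (adjusted p = 0.0680) or with the trend subtracted (0.147). Of the 12 genes of heme synthesis and breakdown reported, 1 fell and 0 rose in DESeq2's deposited result, with 1 more (Alad, above 0) at an unadjusted p under 0.05. The gene that fell was Uros (log2 fold change -0.62, adjusted p = 0.0138), an enzyme of heme synthesis, while Alas1, the rate-limiting step, had 17490 in Huwe1_LKO and 12507 in WT and did not pass in the deposited table (adjusted p = 0.414).

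**Figure D5:**
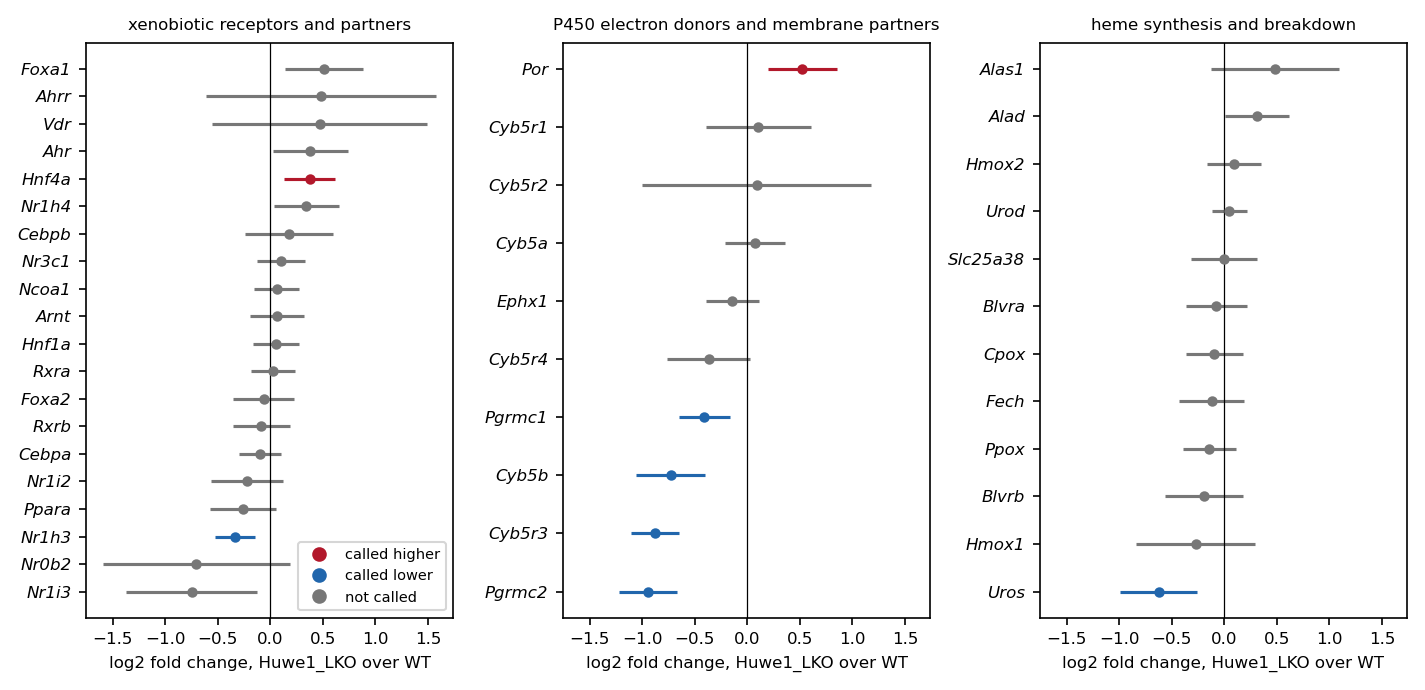
Deposited log2 fold changes of Huwe1_LKO over WT are shown for 20 receptors and partners, 10 electron donors and membrane partners and 12 heme genes, with bars for 95% intervals from the SEs. Red marks genes called higher, blue genes called lower and grey the rest, and Por is red while Cyb5r3, Pgrmc2, Cyb5b and Pgrmc1 are blue.

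Zonation markers were set beside all genes with a mean value of 10 or more, of which 5.69% were called higher and 7.4% lower. The shares were not tested against each other. Of 18 pericentral genes outside the family, 2 rose and 5 fell by the authors' deposited test (median log2 value 0.04), including Znrf3 (0.90) and Slc1a2 (0.49) upward and Aldh3a2 (-0.89), Slc22a3 (-1.08), Rgn (-0.41) and Slc1a4 (-0.85) downward, the call of Rgn being lost with the trend subtracted (adjusted p = 0.0627). Of 17 periportal genes, which include Cyp2f2 itself, Cyp2f2 alone was called, and the median was 0.09.

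The related Cyp2c and Cyp4 genes are set beside these values. Of 14 Cyp2c genes, 6 were called higher and 4 lower in the deposited table, and of 15 Cyp4 genes 2 higher and 3 lower, beside 5 higher and 1 lower of the 38 members. The median size of the log2 fold change, at a mean value of 10 or more, was 0.82 for Cyp2c, 0.43 for Cyp4 and 0.37 for the members described here. Over all genes 4.41% were called higher and 5.56% lower. These shares were not tested against each other, since copies in an array are not independent.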

How the data were processed

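Whole liver RNA of 4 Huwe1_LKO and 4 WT mice was sequenced commercially, per the labels' protocols. The genome build was mm10 and the test DESeq2, as the submitters' processing notes name them. Versions, aligner and read counting are not given in the sources. The authors deposited 1 table, whose expression columns hold a depth-normalized signal per group, per the file headers. A deposited log2 fold change sets Huwe1_LKO over WT and matches the ratio of both group values to within 4.71e-08. Each gene also has a deposited p-value and an adjusted one, which Benjamini-Hochberg over the 16640 genes returns to within 1.74e-06. Fold changes appear shrunken toward 0 where they are uncertain, at few reads or at a large spread such as that of Cyp2a4 and Cyp2b9. Such fold changes may be understated, and no source states this.

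Counts per liver were planned for but not analysed here, so calls are the authors' own. Standard errors are the size of the log2 fold change over the normal score of its p, which assumes a Wald test, and sums propagate them as if genes were independent. The standard error step was also run on simulated data whose p-values came from that same Wald formula. Its recovery was fixed by construction, so the run does not bear on the assumption for the deposited values. Subfamily sums have no replicate check. RefSeq (GRCm38.p6) matched all 38 members by gene ID and gave 33 promoter windows of 250 bases before to 50 after the start. All 38 had a GENCODE M21 transcript. Shared stretches of 100 bases, on either strand, were sought in all GENCODE transcripts, and read length is not given in the sources. At 50 bases many shares were larger, such as 40.8% for Cyp2a5, 40.5% for Cyp2d10 and 10.0% for Cyp2f2, while Cyp2r1 and Cyp3a13 stayed at 0%. Shorter reads would thus be less often assignable to a single gene than the 100-base values show. Members and gene lists were chosen with earlier results of these data known. The lists of heme genes and of cholangiocyte markers each have 1 further gene that is not reported here and enters none of their counts or sums. Named were members called, those with a mean value of 1000 or more, the highest of each subfamily and the one nearest the threshold; other members and uncalled receptors and partners were named after their values were seen. From each list up to 6 called genes are named. Python 3.11.15, pandas 2.3.3, scipy 1.17.1, Biopython 1.88 and matplotlib 3.10.9 were used.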

Additional observations from a re-analysis of the deposited data

How the results depend on the processing

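At an adjusted p under 0.01, 1 member was called higher and 0 lower. With p adjusted over the 12309 genes with a mean value of 10 or more, 7 were higher, as Cyp1a2 (adjusted p = 0.0451) and Cyp2d9 (0.0450) joined the 5, and the same 7 were higher after centring on the most abundant eighth of genes, a shift of 0.08. With the trend in length and level subtracted 7 were higher, Cyp2a12 joining and Cyp3a44 leaving. With a fold change of 1.5 also required 4 were higher, Cyp2f2 leaving. Called lower were 0 members after centring, 0 with the trend subtracted and 0 when a fold change of 1.5 was also required. The median of the members stayed between -0.03 and 0.05. Without its most abundant gene the log2 ratio of sums was -0.33 for Cyp1a, 0.29 for Cyp2a, -1.08 for Cyp2b and 0.056 for Cyp2d, while division by group totals or by length moved no subfamily beyond its error. Of receptors, 2 were higher with p adjusted over genes at 10 or more, 2 higher and 0 lower after centring, and 3 higher and 0 lower with the trend subtracted; these runs on the lists were chosen after seeing the data. Beyond the settings' own construction, causes were not tested. No paired analysis was possible because the deposited table holds 1 value per group, and leaving out single livers was not run for the same reason. Precision rests on 4 livers a group and on fold changes that appear shrunken where they are uncertain.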
